A study of Homo sapiens with 6 samples.

Results

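Collagen alpha chains were compared at the transcript level in RMS13, a human alveolar rhabdomyosarcoma cell line, and in RMS13-R, a line derived from RMS13 that had acquired resistance to MAL3-101. The genes were taken by name, as every gene called COL, a number, A and a number, which gave 44 of the 55401 genes measured. Of these, 11 are fibrillar collagens, 6 are the type IV collagens of basement membranes and 27 belong to other families. RNA sequencing covered 6 libraries in 3 groups of 2, named A and B: RMS13-R cells with 10 µM MAL3-101, RMS13 cells with 10 µM MAL3-101 and RMS13 cells with DMSO, each for 9 h and all grown in medium with serum. MAL3-101 is a small-molecule inhibitor of HSP70 chaperones, and DMSO is its vehicle. RMS13-R cells with DMSO are not analysed here, so the line and its response to the drug cannot be told apart. The labels name 1 resistant line without saying whether it is a clone. Nor do they state that A and B came from different cultures, so every p-value rests on the spread between libraries alone, which may be technical.

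Collagens are mostly secreted proteins of chains wound into a triple helix. Fibrillar collagens give tissues their tensile strength, type IV collagen forms the sheet-like network of basement membranes, and the fibril-associated collagens (FACITs) decorate fibril surfaces. Procollagen chains are hydroxylated and folded in the endoplasmic reticulum with the help of enzymes and dedicated chaperones, leave it in large carriers, and are trimmed and cross-linked outside the cell. Skeletal muscle fibres are wrapped in a basement membrane, and the connective tissue around them is rich in types I and III, made mostly by fibroblasts. Type II collagen is known best from cartilage.

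Sequence before the start sites is shown for collagen genes of each direction of difference between resistant and parental cells. COL4A1 and COL4A2 lie head to head with no protein-coding gene between them, and their start sites are 127 bases apart, so a single stretch of 128 bases spans both. For COL5A1, COL12A1 and COL15A1 the 250 bases before the start are given, and COL5A1 has 2 listed starts, of which the first is shown. The sequences are from RefSeq on GRCh38.p14, each written 5′ to 3′ on the strand named. Capitals mark the letters CCAAT and GGGCGG, the core of the CCAAT box and the GC box, on either strand.
COL4A1 to COL4A2, chr13:110307157-110307284, plus strand: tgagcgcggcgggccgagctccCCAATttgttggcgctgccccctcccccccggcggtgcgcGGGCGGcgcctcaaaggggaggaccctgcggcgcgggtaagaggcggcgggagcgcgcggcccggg
COL5A1, chr9:134641553-134641802, plus strand: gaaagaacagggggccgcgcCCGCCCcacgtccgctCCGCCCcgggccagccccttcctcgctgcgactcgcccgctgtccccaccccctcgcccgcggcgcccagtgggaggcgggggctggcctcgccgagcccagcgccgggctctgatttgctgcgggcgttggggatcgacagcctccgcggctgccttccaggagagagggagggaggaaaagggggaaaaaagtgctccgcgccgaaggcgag
COL12A1, chr6:75206054-75206303, minus strand: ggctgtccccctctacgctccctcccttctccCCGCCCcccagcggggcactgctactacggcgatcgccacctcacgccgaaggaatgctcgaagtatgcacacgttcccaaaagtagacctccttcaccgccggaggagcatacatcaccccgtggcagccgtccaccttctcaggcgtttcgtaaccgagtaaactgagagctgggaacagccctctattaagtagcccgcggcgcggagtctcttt
COL15A1, chr9:98943657-98943906, plus strand: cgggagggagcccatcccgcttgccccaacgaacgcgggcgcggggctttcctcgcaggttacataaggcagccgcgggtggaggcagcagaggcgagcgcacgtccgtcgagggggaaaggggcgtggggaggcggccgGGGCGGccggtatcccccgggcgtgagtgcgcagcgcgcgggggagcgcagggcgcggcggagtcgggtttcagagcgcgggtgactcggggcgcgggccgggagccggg

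The stretch between COL4A1 and COL4A2 held 1 CCAAT and 1 GC box and was 79.7% G and C. Among the 35116 start windows of the RefSeq table, 21.3% had CCAAT and 34.8% had GGGCGG in the 128 bases before the start. The windows before COL5A1, COL12A1 and COL15A1 were 74.0%, 61.2% and 76.8% G and C, against a median of 58.0% over all windows, and held 2, 1 and 1 GC boxes. In windows of 250 bases, 42.6% of all starts had a GC box, 32.0% CCAAT and 10.7% TATAAA. The table held 32 of the 44 collagen genes and 20 of the 28 collagens tested below, with 29 starts. It lacked the other 8 tested collagens: COL3A1, COL5A2, COL1A1, COL2A1, COL14A1, COL6A1, COL8A1 and COL9A3. Nothing is thus said of the windows of those genes. A GC box stood before 17 of the 29 starts held (58.6%), CCAAT before 5 (17.2%) and TATAAA before 4 (13.8%). Some windows overlap: the 2 COL5A1 starts count the same 2 GC boxes, and COL4A1 and COL4A2 share the matches printed above. Counted by gene, 14 of the 20 had a GC box, 5 CCAAT and 4 TATAAA. The endoplasmic reticulum stress element, a CCAAT followed at a fixed distance by CCACG, stood before 0 of the 29 and before 0.074% of all starts. A match of letters is a description of these windows, and none was tested as a binding site.

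Levels are in TPM, a transcript's share of its library scaled by transcript length, so that levels of different genes can be compared. The unit keeps no read depth, so counting errors are not known. The test took genes that averaged 1 TPM or more in some group, which 28 of the 44 collagens did: 8 of 11 fibrillar, 3 of 6 type IV and 17 of 27 others. Of the 28, 21 stood at 1 TPM or more in all 3 groups, 4 in 2 groups and 3 in a single group. Those 7 passed through the group where they were high, so counts over the tested genes say nothing of all 44. The other 16 reached at most 0.85 TPM in any library, and COL23A1 was listed at 0 in all 6. Fold changes are log2 differences of TPM + 1 with the standard error (SE) of limma's moderated test, and understate the change of low genes. A gene is called higher or lower where its Benjamini-Hochberg adjusted p over the 15148 genes tested was under 0.05.

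Replicate libraries lay close. On the log2(TPM + 1) scale 0 of the 28 tested collagens differed 2-fold between the libraries of a group. Few genes of any kind did: 40, 67 and 171 of 15148 in resistant MAL3-101, parental MAL3-101 and parental DMSO cells. The scale hides gaps of low genes, such as COL26A1 at 0.79 and 0.10 TPM in the DMSO pair. The DMSO pair had the widest gaps among the collagens, with a median of 0.25 on the log2 scale, against 0.15 over all tested genes, and the largest was 0.82 for COL11A2. Each library had 13918 to 14334 genes at 1 TPM or more. Of 10 muscle lineage markers 8 reached 1 TPM, among them MYOD1, MYOG and DES, and their summed level was 2199 to 2226 TPM in resistant MAL3-101 cells, 2236 to 2241 TPM in parental MAL3-101 cells and 2312 to 2452 TPM in parental DMSO cells. MYF5 was listed at 0 in every library. The markers differed in both directions between resistant and parental MAL3-101 cells, with a median log2 fold change of 0.46 over the 8 and a highest of 0.92. CHRNA1, an acetylcholine receptor subunit gene, stood at 52.1 and 49.9 TPM in resistant MAL3-101 libraries, 315 and 312 TPM in parental MAL3-101 libraries, and 285 and 337 TPM in parental DMSO libraries. MYOD1 stood at 486 and 484 TPM in resistant MAL3-101 libraries, 714 and 719 TPM in parental MAL3-101 libraries, and 816 and 802 TPM in parental DMSO libraries. MYOG, DES, PAX3 and CHRNG lay above both parental MAL3-101 libraries in both resistant ones. The part of these differences in the collagen results was not tested.

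In every library 6 collagens stood at 50 TPM or more, namely COL5A2, COL4A2, COL4A1, COL5A1, COL14A1 and COL2A1. Summed over all 44 genes, collagen transcripts made 1716 and 1724 TPM in resistant MAL3-101 cells, 972 and 954 TPM in parental MAL3-101 cells, and 1200 and 1045 TPM in parental DMSO cells. The resistant sum was 1.79 times that of parental MAL3-101 cells. The makeup differed as well as the total. Fibrillar chains were 53.9% of the sum in resistant MAL3-101 cells, 42.8% in parental MAL3-101 cells and 46.4% in parental DMSO cells. Type IV chains were 34.4% in resistant MAL3-101 cells, 32.5% in parental MAL3-101 cells and 33.5% in parental DMSO cells. The other families were 11.7% of the sum in resistant MAL3-101 cells, 24.7% in parental MAL3-101 cells and 20.1% in parental DMSO cells. These sums and shares are given as descriptions and were not tested.

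**Figure D1:**
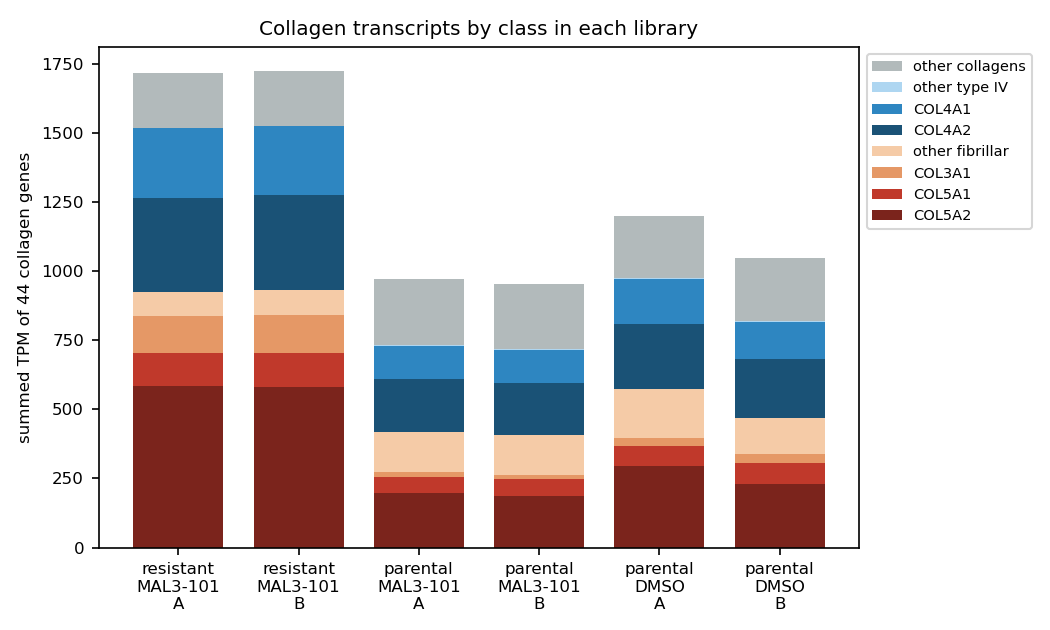
Summed TPM of fibrillar, type IV and other collagen genes in each of the 6 libraries, as stacked bars on a linear axis from 0. The resistant bars reach 1716 and 1724 TPM, above the parental MAL3-101 bars at 972 and 954 TPM and the parental DMSO bars at 1200 and 1045 TPM, while the segment of other collagens is smallest in resistant cells.

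The fibrillar sum was 927 ± 3.80 TPM in resistant MAL3-101 cells, 413 ± 6.74 TPM in parental MAL3-101 cells and 522 ± 75.5 TPM in parental DMSO cells (SD, n = 2 each). The type IV sum was 592 ± 1.55 TPM in resistant MAL3-101 cells, 313 ± 5.09 TPM in parental MAL3-101 cells and 376 ± 34.5 TPM in parental DMSO cells. The remaining families summed to 201 ± 0.0283 TPM in resistant MAL3-101 cells, 238 ± 0.643 TPM in parental MAL3-101 cells and 225 ± 0.863 TPM in parental DMSO cells, so this sum alone was lowest in resistant cells. Within the fibrillar class the higher sum came from 3 genes. COL5A2, COL3A1 and COL5A1 together made 838 and 840 TPM in resistant MAL3-101 cells, 273 and 262 TPM in parental MAL3-101 cells, and 397 and 337 TPM in parental DMSO cells. The other 8 fibrillar genes together made 86.4 and 90.2 TPM in resistant MAL3-101 cells, 145 and 146 TPM in parental MAL3-101 cells, and 178 and 131 TPM in parental DMSO cells.

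**Figure D2:**
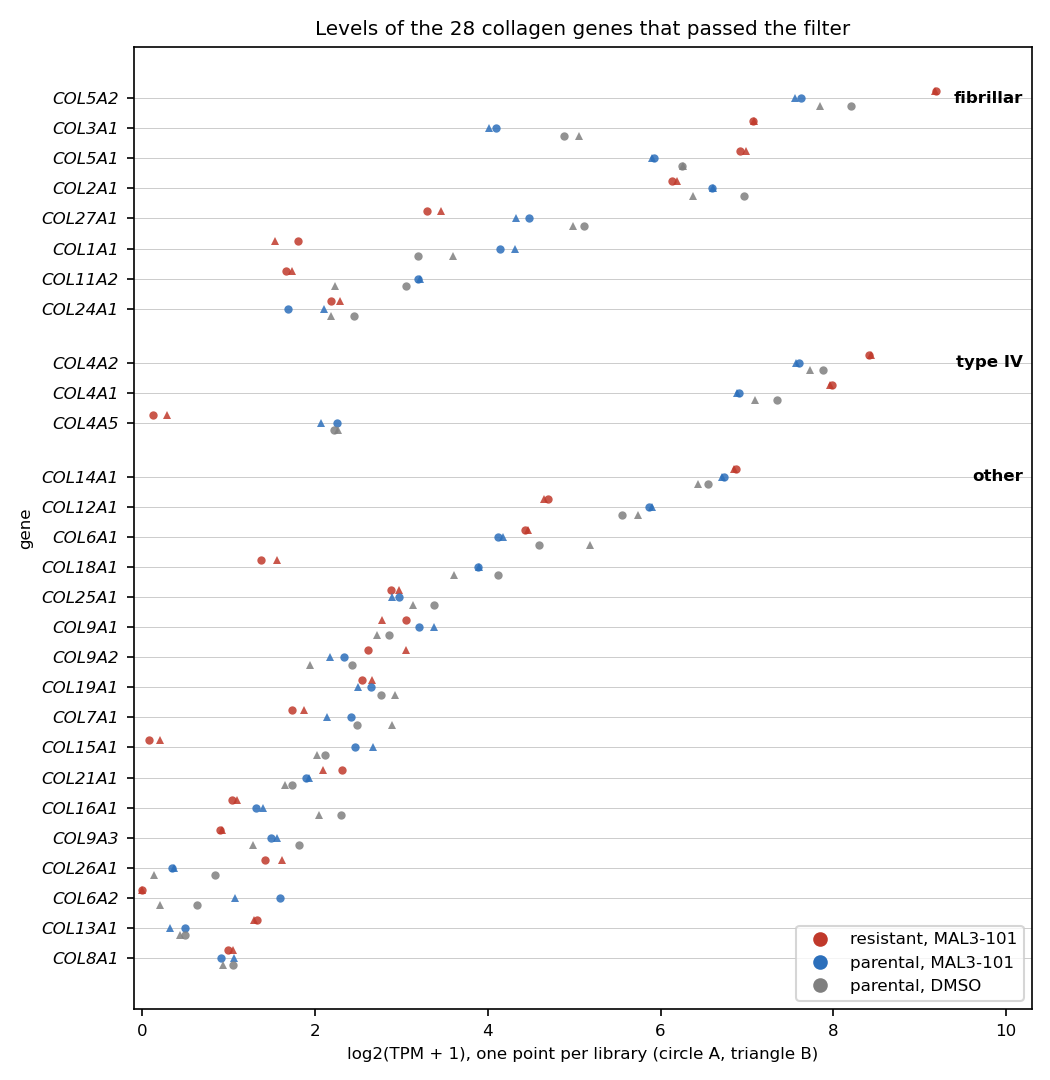
Levels of the 28 collagen genes that passed the filter, 1 point per library, on the log2(TPM + 1) scale, coloured by group. COL3A1 lies near 134 TPM in resistant cells and near 15.6 TPM in parental MAL3-101 cells, while COL1A1 and COL18A1 lie lowest in resistant cells.

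Resistant cells with MAL3-101 had more transcript of COL3A1, COL5A2 and COL5A1 among fibrillar collagens and of both major type IV chains than parental cells with the same drug, and less of COL1A1, COL11A2, COL27A1, COL4A5, COL12A1, COL15A1 and COL18A1. Of the 28 tested collagens, 7 were called higher and 10 lower, or 60.7%, against 56.1% of all tested genes, with 21.3% of all genes called higher and 34.8% lower. The share of collagens called was thus close to that of all genes. The collagen fold changes ran from -2.55 to 3.03 with a median of 0.01, and the median of all tested genes was -0.10. Among fibrillar genes 3 of 8 were higher and 3 lower, among type IV genes 2 of 3 were higher and 1 lower, and among the others 2 of 17 were higher and 6 lower. The medians of these classes were -0.05, 0.83 and -0.01. The class counts are partly set by the filter. COL13A1 and COL26A1, the higher genes of the other families, were tested only through resistant cells. COL4A5, COL6A2, COL9A3 and COL15A1, all called lower, were tested only through parental cells. The DMSO libraries share the fit, and parental MAL3-101 libraries enter both this comparison and that with DMSO, so the fold changes below are not independent of each other.

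COL3A1 encodes the chain of type III collagen, which forms thin fibrils in distensible tissue. Its level was 134 and 135 TPM in resistant MAL3-101 libraries, 16.0 and 15.2 TPM in parental MAL3-101 libraries, and 28.5 and 32.3 TPM in parental DMSO libraries. The 3 groups did not overlap, with resistant cells highest and parental MAL3-101 cells lowest. The log2 fold change between resistant and parental MAL3-101 cells was 3.03 (SE 0.07, adjusted p = 1.1e-06), the largest of the 28 tested collagens. By level, COL3A1 was collagen number 4 in resistant cells, number 11 in parental MAL3-101 cells and number 9 in parental DMSO cells.

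COL5A2 and COL5A1 encode the chains of type V collagen, which sits inside types I and III fibrils and governs their width. COL5A2 was the most abundant collagen transcript of resistant cells, at 584 and 579 TPM in resistant MAL3-101 libraries, 197 and 188 TPM in parental MAL3-101 libraries, and 294 and 229 TPM in parental DMSO libraries. It alone made 33.6% to 34.0% of all collagen TPM in the resistant libraries. In parental cells of both treatments COL5A2 and COL4A2 overlapped at the top of the order. The log2 fold change of COL5A2 between resistant and parental MAL3-101 cells was 1.59 (SE 0.10, adjusted p = 3.0e-05). COL5A1 stood at 120.4 and 126 TPM in resistant MAL3-101 libraries, 59.7 and 58.6 TPM in parental MAL3-101 libraries, and 74.7 and 75.8 TPM in parental DMSO libraries. Its log2 fold change was 1.04 (SE 0.05, adjusted p = 9.8e-06), again with no overlap between groups. Both type V genes thus differed in the same direction but not in proportion: COL5A2 exceeded COL5A1 4.85-fold and 4.60-fold in resistant MAL3-101 libraries, 3.30-fold and 3.21-fold in parental MAL3-101 libraries, and 3.93-fold and 3.03-fold in parental DMSO libraries. COL3A1 and COL5A2 are neighbours on chromosome 2 with no protein-coding gene between them, and both were highest in resistant cells.

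COL1A1, the gene of the major chain of type I collagen, the main collagen of bone, skin and tendon, showed the reverse order. It stood at 2.49 and 1.90 TPM in resistant MAL3-101 libraries, 16.6 and 18.9 TPM in parental MAL3-101 libraries, and 8.17 and 11.1 TPM in parental DMSO libraries. Resistant cells were lowest and parental MAL3-101 cells highest, with no overlap, and the log2 fold change was -2.55 (SE 0.17, adjusted p = 3.0e-05). Within a library COL3A1 exceeded COL1A1 53.7-fold and 71.0-fold in resistant MAL3-101 cells and 3.48-fold and 2.91-fold in parental DMSO cells, while the ratio was 0.967 and 0.805 in parental MAL3-101 cells. COL1A2, the gene of the partner chain in the usual type I trimer, was not tested, since it stood between 0 and 0.21 TPM in all 6 libraries.

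COL2A1 encodes type II collagen, whose fibrils in cartilage also carry types IX and XI. Its level was 69.3 and 72.0 TPM in resistant MAL3-101 libraries, 96.05 and 96.3 TPM in parental MAL3-101 libraries, and 124 and 81.9 TPM in parental DMSO libraries. Resistant libraries lay below all 4 parental ones, but the DMSO pair spanned the parental MAL3-101 values, and the log2 fold change between resistant and parental MAL3-101 cells of -0.44 (SE 0.17, adjusted p = 0.055) did not pass. Without DMSO library A that adjusted p was 4.4e-05 and without DMSO library B 3.9e-05. COL11A2, a type XI chain gene, stood at 2.16 and 2.34 TPM in resistant MAL3-101 libraries, 8.14 and 8.32 TPM in parental MAL3-101 libraries, and 7.28 and 3.69 TPM in parental DMSO libraries. It was lower in resistant than in parental MAL3-101 cells, with a log2 difference of -1.51 (SE 0.24, adjusted p = 0.002). COL27A1, a fibrillar collagen known from developing cartilage, stood at 8.85 and 9.96 TPM in resistant MAL3-101 libraries, 21.2 and 19.0 TPM in parental MAL3-101 libraries, and 33.6 and 30.7 TPM in parental DMSO libraries. Its groups formed 3 separate steps, and the log2 fold change between resistant and parental MAL3-101 cells was -1.02 (SE 0.10, adjusted p = 1.4e-04). COL24A1, the last tested fibrillar gene, stood at 3.55 and 3.89 TPM in resistant MAL3-101 libraries, 2.22 and 3.31 TPM in parental MAL3-101 libraries, and 4.46 and 3.55 TPM in parental DMSO libraries. Resistant and DMSO libraries met at 3.55 TPM, parental MAL3-101 libraries lay below both, and the gene was not called in any comparison. The fibrillar genes COL5A3 and COL11A1 reached at most 0.03 and 0.19 TPM.

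COL4A1 and COL4A2 encode the chains of the common type IV network and lie on either side of the stretch printed above. COL4A1 stood at 252 and 248 TPM in resistant MAL3-101 libraries, 119 and 117 TPM in parental MAL3-101 libraries, and 162 and 135 TPM in parental DMSO libraries. COL4A2 stood at 339 and 346 TPM in resistant MAL3-101 libraries, 194 and 189 TPM in parental MAL3-101 libraries, and 235 and 212 TPM in parental DMSO libraries. For both genes the resistant libraries were highest, the parental MAL3-101 libraries lowest, and no groups overlapped. Between resistant and parental MAL3-101 cells, the log2 fold change was 1.08 (SE 0.08, adjusted p = 4.7e-05) for COL4A1 and 0.83 (SE 0.06, adjusted p = 3.7e-05) for COL4A2. COL4A2 exceeded COL4A1 1.34-fold and 1.39-fold in resistant MAL3-101 libraries, 1.63-fold and 1.61-fold in parental MAL3-101 libraries, and 1.45-fold and 1.56-fold in parental DMSO libraries, so the pair stood nearest to each other in resistant cells. COL4A5, a chain gene of the X chromosome used in specialised basement membranes, went the other way. It stood at 0.09 and 0.22 TPM in resistant MAL3-101 libraries, 3.77 and 3.19 TPM in parental MAL3-101 libraries, and 3.66 and 3.82 TPM in parental DMSO libraries, with a log2 change of -1.95 (SE 0.15, adjusted p = 5.7e-05) between resistant and parental MAL3-101 cells. The other type IV genes were near 0, with highest values of 0.12 TPM for COL4A3, 0.01 TPM for COL4A4 and 0.28 TPM for COL4A6.

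Among the FACITs, 8 of 10 genes were tested, and in resistant against parental MAL3-101 cells limma called 0 higher and 3 lower, with 2 higher at an unadjusted p under 0.05, against 21.3% of all tested genes called higher and 34.8% lower. COL12A1, a FACIT of dense connective tissue and muscle, stood at 25.0 and 24.1 TPM in resistant MAL3-101 libraries, 57.6 and 58.7 TPM in parental MAL3-101 libraries, and 46.0 and 52.3 TPM in parental DMSO libraries. Resistant cells were lowest, with a log2 difference of -1.21 (SE 0.07, adjusted p = 2.4e-05) against parental MAL3-101 cells. COL14A1, a related FACIT, was the most abundant of this class, at 116 and 114 TPM in resistant MAL3-101 libraries, 105 and 104 TPM in parental MAL3-101 libraries, and 92.6 and 85.2 TPM in parental DMSO libraries. The groups did not overlap, yet the step between resistant and parental MAL3-101 cells, a log2 change of 0.13 (SE 0.05, adjusted p = 0.074), did not pass. Without DMSO library A or B its adjusted p was 0.008, and after median-ratio or upper-quartile scaling 0.005 or 0.004. COL9A1, COL9A2 and COL9A3 encode the chains of type IX collagen, which coats type II fibrils in cartilage, and their values ran in different directions. COL9A1 stood at 7.28 and 5.87 TPM in resistant MAL3-101 libraries, 8.24 and 9.39 TPM in parental MAL3-101 libraries, and 6.23 and 5.59 TPM in parental DMSO libraries. COL9A2 stood at 5.13 and 7.28 TPM in resistant MAL3-101 libraries, 4.06 and 3.52 TPM in parental MAL3-101 libraries, and 4.40 and 2.84 TPM in parental DMSO libraries. COL9A3 stood at 0.87 and 0.90 TPM in resistant MAL3-101 libraries, 1.81 and 1.95 TPM in parental MAL3-101 libraries, and 2.51 and 1.43 TPM in parental DMSO libraries. Thus COL9A2 was highest and COL9A3 lowest in resistant cells, with log2 fold changes against parental MAL3-101 cells of 0.58 (SE 0.21, adjusted p = 0.052) and -0.61 (SE 0.20, adjusted p = 0.034), while COL9A1 had -0.38 (SE 0.13, adjusted p = 0.047). The calls of COL9A1 and COL9A3 were lost without any 1 of the 4 MAL3-101 libraries, with adjusted p from 0.052 to 0.282 and from 0.102 to 0.133; COL9A2 passed without resistant library A (0.047), DMSO library A (0.017) or DMSO library B (0.016).

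COL19A1 stood at 4.85 and 5.30 TPM in resistant MAL3-101 libraries, 5.29 and 4.65 TPM in parental MAL3-101 libraries, and 5.81 and 6.58 TPM in parental DMSO libraries, and was called in no comparison. COL16A1 stood at 1.05 and 1.14 TPM in resistant MAL3-101 libraries, 1.49 and 1.64 TPM in parental MAL3-101 libraries, and 3.93 and 3.14 TPM in parental DMSO libraries. Of these FACITs, COL16A1 differed chiefly between DMSO and both MAL3-101 groups, with a log2 difference of -0.29 (SE 0.15, adjusted p = 0.143) between resistant and parental MAL3-101 cells. COL21A1 stood at 3.98 and 3.28 TPM in resistant MAL3-101 libraries, 2.72 and 2.82 TPM in parental MAL3-101 libraries, and 2.32 and 2.15 TPM in parental DMSO libraries. The 3 groups did not overlap, yet the step between the MAL3-101 groups, 0.29 (SE 0.14, adjusted p = 0.113), was not called. Nor was that between parental MAL3-101 and DMSO cells, 0.22 (SE 0.14, adjusted p = 0.246).

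Both multiplexins, the basement membrane collagens that carry endostatin-like ends, were far lower in resistant cells. COL18A1 stood at 1.60 and 1.95 TPM in resistant MAL3-101 libraries, 13.8 and 14.0 TPM in parental MAL3-101 libraries, and 16.3 and 11.2 TPM in parental DMSO libraries. COL15A1 stood at 0.06 and 0.15 TPM in resistant MAL3-101 libraries, 4.53 and 5.39 TPM in parental MAL3-101 libraries, and 3.32 and 3.08 TPM in parental DMSO libraries. The log2 fold changes between resistant and parental MAL3-101 cells were -2.42 (SE 0.17, adjusted p = 4.4e-05) for COL18A1 and -2.43 (SE 0.15, adjusted p = 2.4e-05) for COL15A1. These genes thus ran against COL4A1 and COL4A2, although all 4 encode basement membrane proteins.

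Type VI collagen, the beaded filament collagen of muscle, is built from COL6A1, COL6A2 and COL6A3 chains. COL6A1 stood at 20.5 and 21.1 TPM in resistant MAL3-101 libraries, 16.4 and 17.1 TPM in parental MAL3-101 libraries, and 23.2 and 35.25 TPM in parental DMSO libraries. COL6A2, its neighbour on chromosome 21, was listed at 0 in both resistant libraries, at 2.01 and 1.11 TPM in parental MAL3-101 libraries, and at 0.55 and 0.15 TPM in parental DMSO libraries. COL6A3 reached at most 0.05 TPM. COL6A2 was called lower in resistant than in parental MAL3-101 cells (adjusted p = 0.003), and no fold is given against libraries at 0. The gene passed the filter through parental MAL3-101 cells alone, which favoured this call. COL6A1 had a log2 change of 0.30 (SE 0.17, adjusted p = 0.172), and without DMSO library A or B its adjusted p was 0.003.

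COL7A1, the anchoring fibril collagen of skin, stood at 2.32 and 2.66 TPM in resistant MAL3-101 libraries, 4.33 and 3.42 TPM in parental MAL3-101 libraries, and 4.59 and 6.42 TPM in parental DMSO libraries, with a log2 difference of -0.48 (SE 0.18, adjusted p = 0.055) between the MAL3-101 groups (0.017 and 0.018 without DMSO library A and B). The transmembrane collagen COL25A1 stood at 6.36 and 6.84 TPM in resistant MAL3-101 libraries, 6.88 and 6.42 TPM in parental MAL3-101 libraries, and 9.40 and 7.77 TPM in parental DMSO libraries, and was not called in any comparison. The transmembrane collagen COL13A1, found at neuromuscular junctions, was one of 2 genes that reached 1 TPM only in resistant cells. It stood at 1.52 and 1.45 TPM in resistant MAL3-101 libraries, 0.41 and 0.25 TPM in parental MAL3-101 libraries, and 0.41 and 0.35 TPM in parental DMSO libraries, a log2 change of 0.90 (SE 0.16, adjusted p = 0.003) between the MAL3-101 groups. The other was COL26A1, at 1.68 and 2.06 TPM in resistant MAL3-101 libraries, 0.27 and 0.29 TPM in parental MAL3-101 libraries, and 0.79 and 0.10 TPM in parental DMSO libraries, a log2 difference of 1.16 (SE 0.25, adjusted p = 0.006). COL13A1 and COL26A1 were tested only because resistant cells reached 1 TPM, which favoured a rise, so these p-values are descriptive. COL8A1, a short-chain collagen, stayed between 0.88 and 1.09 TPM in all 6 libraries. Of the genes below the filter, COL8A2 and COL28A1 came nearest to it, with highest values of 0.85 and 0.80 TPM.

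Markers of other cell types were set beside these differences, since connective tissue collagens are typical of fibroblasts. Of 7 fibroblast markers 4 reached 1 TPM, with summed levels of 8.16 to 8.47 TPM in resistant MAL3-101 cells, 18.4 to 18.6 TPM in parental MAL3-101 cells and 19.5 to 21.4 TPM in parental DMSO cells. THY1 and LUM were listed at 0 in both resistant libraries, and DCN reached at most 0.57 TPM, in a resistant library. FAP went the other way, at 1.33 and 1.53 TPM in resistant MAL3-101 libraries, 0.65 and 0.54 TPM in parental MAL3-101 libraries, and 0.39 and 0.46 TPM in parental DMSO libraries. The endothelial markers found, 5 of 6 listed, summed to 19.6 to 21.6 TPM in resistant MAL3-101 cells, 2.31 to 2.72 TPM in parental MAL3-101 cells and 4.14 to 4.49 TPM in parental DMSO cells. That difference was carried by TEK, at 18.9 and 20.9 TPM in resistant libraries, while the defining markers VWF and CDH5 reached at most 0.24 and 0.21 TPM in any library. The 7 epithelial markers, of which EPCAM alone reached 1 TPM, summed to 0.680 to 0.760 TPM in resistant MAL3-101 cells, 6.71 to 6.79 TPM in parental MAL3-101 cells and 4.11 to 4.21 TPM in parental DMSO cells, with KRT5 at 0 in all. The 6 leukocyte markers summed to 0.940 to 1.10 TPM in resistant MAL3-101 cells, 1.86 to 2.30 TPM in parental MAL3-101 cells and 1.83 to 1.88 TPM in parental DMSO cells, with LYZ alone at 1 TPM and MS4A1 at 0 in all. Their part in the collagen differences was not tested. In bulk RNA, fewer cells of a type and less RNA per cell cannot be told apart.

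**Figure D3:**
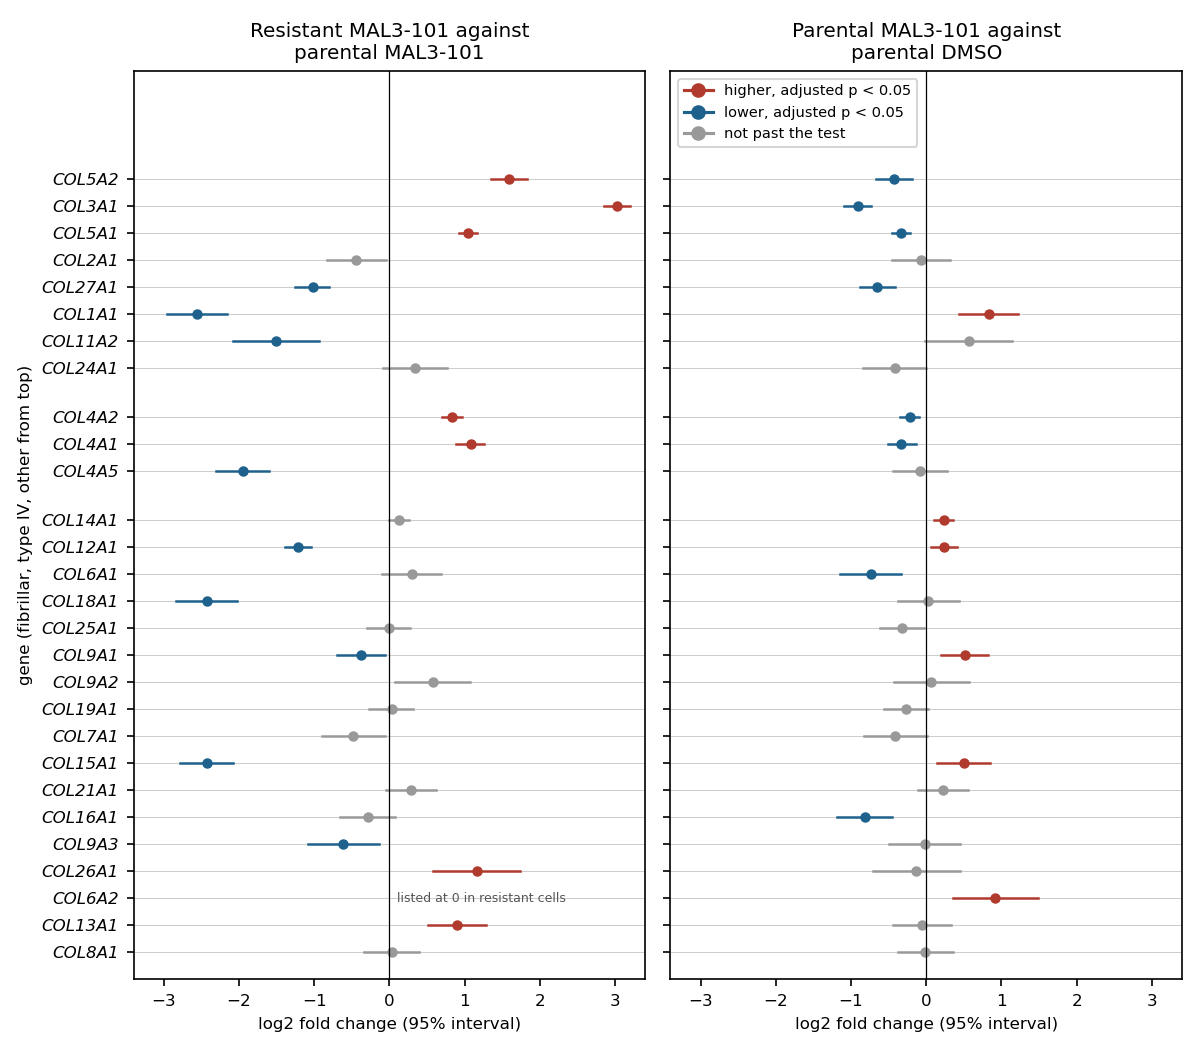
Log2 fold changes of the 28 tested collagens on the log2(TPM + 1) scale, by class, with bars for the 95% interval. The panels show resistant against parental MAL3-101 cells and parental MAL3-101 against parental DMSO cells. The resistant comparison spans -2.55 to 3.03 and the drug comparison -0.91 to 0.92, and no fold is drawn for COL6A2 against resistant libraries listed at 0.

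In parental cells, MAL3-101 went with collagen differences of a narrower range: COL3A1, COL5A1, COL5A2, COL27A1, COL4A1 and COL4A2 were lower than with DMSO, and COL1A1 was higher. Of the 28 collagens, 6 were called higher and 8 lower, or 50.0%, against 40.8% of all tested genes, with 22.6% of all tested genes called higher and 18.2% lower. The collagen median was -0.08, the range -0.91 to 0.92, and the median of all tested genes 0.02. The upper end was COL6A2, which passed the filter through parental MAL3-101 cells alone. Fibrillar genes gave 1 higher and 4 lower of 8, with a median of -0.38. Type IV genes gave 0 higher and 2 lower of 3 by limma, with 0 higher also at an unadjusted p under 0.05 and a median of -0.22. The others gave 5 higher and 2 lower of 17, with a median of -0.01.

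COL3A1 had the largest fall, a log2 change of -0.91 (SE 0.07, adjusted p = 2.1e-04), with 15.6 ± 0.601 TPM in parental MAL3-101 cells and 30.4 ± 2.70 TPM in parental DMSO cells (SD, n = 2 each). COL16A1 fell by 0.82 (SE 0.15, adjusted p = 0.006), COL27A1 by 0.65 (SE 0.10, adjusted p = 0.002) and COL5A1 by 0.34 (SE 0.05, adjusted p = 0.002) on the log2 scale. These 4 calls held without any single library. The falls of COL6A1 (-0.74, SE 0.17, adjusted p = 0.012), COL5A2 (-0.43, SE 0.10, adjusted p = 0.015), COL4A1 (-0.33, SE 0.08, adjusted p = 0.016) and COL4A2 (-0.22, SE 0.06, adjusted p = 0.020) were lost without parental MAL3-101 library A or B, at adjusted p of 0.060 to 0.121. The fall of COL4A2 was lost also without resistant library A or B (0.052 each).

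COL1A1 rose by a log2 difference of 0.83 (SE 0.17, adjusted p = 0.007), to 17.7 ± 1.61 TPM in parental MAL3-101 cells, against 9.62 ± 2.06 TPM in parental DMSO cells; without parental MAL3-101 library B the adjusted p was 0.062. The other rises were COL6A2 (0.92, SE 0.24, adjusted p = 0.020), favoured by passing the filter through this group alone, COL9A1 (0.51, SE 0.13, adjusted p = 0.022), COL15A1 (0.50, SE 0.15, adjusted p = 0.033), COL14A1 (0.24, SE 0.05, adjusted p = 0.013) and COL12A1 (0.24, SE 0.07, adjusted p = 0.037). Each of these rises was lost without at least 1 library: only COL1A1 was still called higher without parental MAL3-101 library A, and only COL6A2 without its library B. COL2A1 was not called, at -0.07 (SE 0.17, adjusted p = 0.763), but its direction hung on 1 library, with 0.23 (adjusted p = 0.005) without DMSO library A and -0.37 (adjusted p = 6.6e-04) without DMSO library B. COL11A2, not called at 0.57 (SE 0.24, adjusted p = 0.105), passed at 0.98 (adjusted p = 9.0e-04) without DMSO library A. COL18A1 was at 0.03 and COL4A5 at -0.08, neither of them called. The number of collagens called changed as each library was left out. So did the precision over all tested genes. Their median SE was 0.11 in the full fit, 0.14 without parental MAL3-101 library A or B and 0.09 without DMSO library A or B. Lost or gained calls are thus not a trait of the collagens alone. Against a fold of 1.5, limma called 0 collagens, and 1, COL3A1, had an unadjusted p under 0.05. Of all 15148 tested genes, that test called 299 higher and 47 lower, so few genes of any kind passed it.

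Set side by side, the rises of COL3A1, COL5A2, COL5A1, COL4A1 and COL4A2 in resistant against parental MAL3-101 cells faced falls of the same genes in parental MAL3-101 against DMSO cells. Both comparisons use the parental MAL3-101 libraries on opposite sides of the difference, so the opposite signs are not independent. Measured against parental DMSO cells, which leaves those libraries out of the difference, the rises were smaller but still called: 2.11 (SE 0.07, adjusted p = 4.5e-06) for COL3A1, 1.16 (SE 0.10, adjusted p = 1.4e-04) for COL5A2, 0.70 (SE 0.05, adjusted p = 5.0e-05) for COL5A1, 0.75 (SE 0.08, adjusted p = 2.7e-04) for COL4A1 and 0.62 (SE 0.06, adjusted p = 1.6e-04) for COL4A2. In that comparison 10 collagens were called higher and 11 lower, or 75.0% of 28, against 50.6% of all tested genes, with 20.9% of all tested genes called higher and 29.7% lower. The collagen median was -0.29 and that of all tested genes -0.06. Fibrillar genes gave 3 higher and 4 lower, type IV genes 2 and 1, and the others 5 and 6. The line and the drug differ together in this comparison.

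Resistant MAL3-101 cells were also far below parental DMSO cells in COL18A1 (-2.39, SE 0.17, adjusted p = 5.5e-05), COL4A5 (-2.04, SE 0.15, adjusted p = 6.0e-05) and COL15A1 (-1.93, SE 0.15, adjusted p = 7.4e-05). COL4A5 and COL15A1, like COL9A3 below, were tested only through parental cells, which favoured a fall. The p-values of these genes are descriptive. COL1A1 (-1.73, SE 0.17, adjusted p = 1.9e-04), COL27A1 (-1.67, SE 0.10, adjusted p = 2.4e-05), COL16A1 (-1.11, SE 0.15, adjusted p = 9.5e-04), COL12A1 (-0.97, SE 0.07, adjusted p = 6.9e-05) and COL7A1 (-0.89, SE 0.18, adjusted p = 0.005) were lower as well, and all 8 calls held without any single library. COL11A2 (-0.94, SE 0.24, adjusted p = 0.016), COL9A3 (-0.63, SE 0.20, adjusted p = 0.033) and COL2A1 (-0.51, SE 0.17, adjusted p = 0.037) lost their calls without resistant library A or B, with adjusted p of 0.066 to 0.146. For COL2A1 and COL9A3 the call was lost also without parental MAL3-101 library A or B (0.066 and 0.059), and for COL9A3 without DMSO library A (0.105). Beyond the rises above, COL26A1 (1.03, SE 0.25, adjusted p = 0.011), COL13A1 (0.85, SE 0.16, adjusted p = 0.004), COL9A2 (0.65, SE 0.21, adjusted p = 0.038), COL21A1 (0.51, SE 0.14, adjusted p = 0.019) and COL14A1 (0.37, SE 0.05, adjusted p = 0.001) were higher, with COL26A1 and COL13A1 tested only through resistant cells. Of these, COL26A1 was lost without resistant library B (0.074), COL21A1 without resistant library A (0.143), and COL9A2 without resistant library B (0.232), DMSO library B (0.123) or either parental MAL3-101 library (0.065 and 0.064).

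The proteins that make, export, trim, cross-link, break down and bind collagen were followed in 7 lists of 92 genes, all of which were found. These lists were chosen with results of these data known. In resistant against parental MAL3-101 cells list medians ran from -0.53 to 0.27, against -0.10 over all tested genes. Counts of called genes below are set beside the shares of all tested genes called.

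**Figure D4:**
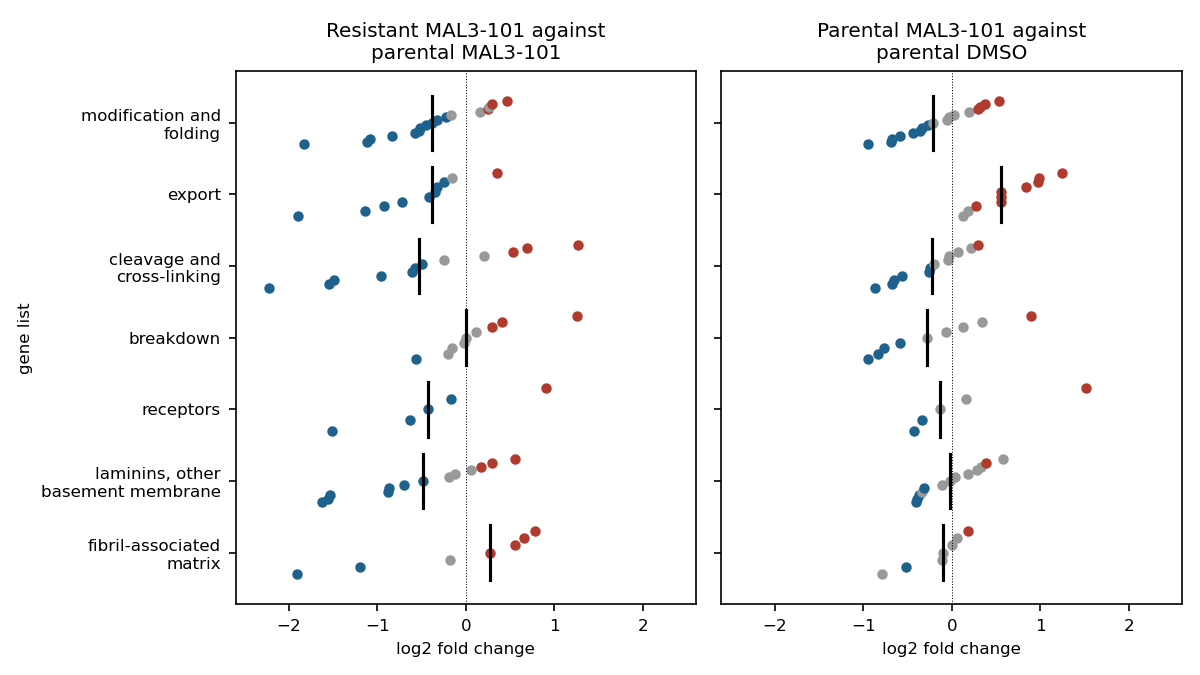
Log2 fold changes of the tested genes of 7 lists around collagen biosynthesis and binding, 1 dot per gene, coloured by call, with a black bar at the list's median, for each comparison. For resistant against parental MAL3-101 cells the medians run from -0.53 for propeptide cleavage and cross-linking to 0.27 for fibril-associated matrix proteins, and for parental MAL3-101 against DMSO cells the export list stands at 0.56.

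Of the enzymes and chaperones that modify and fold procollagen, 3 were higher and 11 lower of 17 tested in resistant against parental MAL3-101 cells, against 21.3% higher and 34.8% lower among all genes. SERPINH1 encodes HSP47, the collagen-specific chaperone of the endoplasmic reticulum, and stood at 177 and 172 TPM in resistant MAL3-101 libraries, 389 and 370.4 TPM in parental MAL3-101 libraries, and 238 and 289 TPM in parental DMSO libraries. The groups did not overlap, and the log2 fold change was -1.12 (SE 0.09, adjusted p = 5.7e-05) between the MAL3-101 groups. P4HA2, a catalytic subunit of the prolyl hydroxylase that stabilises the triple helix, stood at 33.7 and 34.0 TPM in resistant MAL3-101 libraries, 123 and 122 TPM in parental MAL3-101 libraries, and 125 and 91.3 TPM in parental DMSO libraries, with a log2 change of -1.83 (SE 0.13, adjusted p = 3.8e-05). The sister subunit P4HA1 had -0.83 (SE 0.09), the shared subunit P4HB -0.57 (SE 0.05) and the lysyl hydroxylase PLOD3 -1.08 (SE 0.08), all called. The lysyl hydroxylase PLOD2 had -0.38 (SE 0.10, adjusted p = 0.014), a call lost without any 1 of the 4 MAL3-101 libraries (0.064 to 0.087). COLGALT1, which adds galactose to hydroxylysine, was higher, at 100.4 and 105 TPM in resistant MAL3-101 libraries, 73.0 and 74.8 TPM in parental MAL3-101 libraries, and 147 and 139 TPM in parental DMSO libraries, with a log2 difference of 0.47 (SE 0.05). Without resistant library B, 1 gene of this list was called higher.

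In parental MAL3-101 against DMSO cells this list gave 4 higher and 8 lower of 17, or 5 lower without parental MAL3-101 library A, against 22.6% and 18.2% of all genes. SERPINH1 rose by 0.53 (SE 0.09, adjusted p = 0.003) and P4HB by 0.30 (SE 0.05), while COLGALT1 fell by 0.94 (SE 0.05) and FKBP10, a collagen prolyl isomerase, by 0.68 (SE 0.06) on the log2 scale. P4HA2 was not called at 0.20 (SE 0.13, adjusted p = 0.245), though without DMSO library A its adjusted p was 2.9e-04. In resistant against parental DMSO cells limma called 0 higher, also 0 at an unadjusted p under 0.05, and 13 lower of 17, against 20.9% higher and 29.7% lower among all genes. SERPINH1 (-0.59, SE 0.09) and P4HA2 (-1.63, SE 0.13) were among these, while COL3A1, COL5A2 and COL4A1 were higher in the same libraries.

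The list for export of procollagen in large carriers split by comparison, with 1 higher and 8 lower of 10 in resistant against parental MAL3-101 cells and 8 higher and 0 lower in parental MAL3-101 against DMSO cells, where 0 were lower also at an unadjusted p under 0.05. Among all genes, 21.3% were higher and 34.8% lower in the first comparison, and 22.6% and 18.2% in the second. The counts of this list include CREB3L1 and CREB3L2, which encode transcription factors and not parts of the carriers. CREB3L1, at 0.13 and 0.18 TPM in resistant libraries, was tested only through parental cells, which favoured a fall in resistant cells. MIA3, which encodes TANGO1, the receptor that loads procollagen at exit sites, stood at 54.0 and 50.0 TPM in resistant MAL3-101 libraries, 99.3 and 98.8 TPM in parental MAL3-101 libraries, and 65.3 and 68.5 TPM in parental DMSO libraries. Its partner CTAGE5 stood at 12.1 and 12.4 TPM in resistant MAL3-101 libraries, 28.4 and 28.2 TPM in parental MAL3-101 libraries, and 14.7 and 13.4 TPM in parental DMSO libraries. Both were highest in parental MAL3-101 cells. MIA3 had a log2 change of -0.92 (SE 0.06) and CTAGE5 one of -1.14 (SE 0.08) between resistant and parental MAL3-101 cells, and 0.56 (SE 0.06) and 0.97 (SE 0.08) between parental MAL3-101 and DMSO cells. SEC24D, a coat protein of these carriers, stood at 60.0 and 61.1 TPM in resistant MAL3-101 libraries, 69.4 and 66.0 TPM in parental MAL3-101 libraries, and 28.75 and 27.0 TPM in parental DMSO libraries, so both MAL3-101 groups lay above DMSO. It rose by 1.25 (SE 0.06, adjusted p = 2.3e-05) in parental cells with the drug. Against DMSO, resistant cells had 4 genes of the list higher and 2 lower (20.9% and 29.7% of all genes); 2 were higher without resistant library A or B, and 4 lower without DMSO library B. SEC23A, the single gene called higher between the MAL3-101 groups, at 0.35, lost its call without resistant library A or B or parental MAL3-101 library B (0.085 to 0.148).

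Of the enzymes that cleave propeptides and cross-link fibrils, 3 were higher and 7 lower of 12 in resistant against parental MAL3-101 cells, where 21.3% of all genes were higher and 34.8% lower. LOX, the lysyl oxidase that starts cross-linking, stood at 3.74 and 2.52 TPM in resistant MAL3-101 libraries, 9.68 and 11.3 TPM in parental MAL3-101 libraries, and 7.74 and 12.6 TPM in parental DMSO libraries, with a log2 difference of -1.49 (SE 0.23, adjusted p = 0.001) between the MAL3-101 groups. LOXL4 had -1.55 (SE 0.10), while LOXL2, an oxidase known to act on type IV collagen, was higher, at 0.69 (SE 0.04). TLL2, a relative of the procollagen C-proteinase BMP1, stood at 0.57 and 0.45 TPM in resistant MAL3-101 libraries, 6.35 and 5.72 TPM in parental MAL3-101 libraries, and 11.1 and 7.91 TPM in parental DMSO libraries, a log2 change of -2.22 (SE 0.17). TLL2 was tested only through parental cells, which favoured its calls as lower in resistant cells. ADAMTS3, a procollagen N-proteinase, was higher in resistant cells, at 14.6 and 15.2 TPM in resistant MAL3-101 libraries, 5.70 and 5.48 TPM in parental MAL3-101 libraries, and 5.86 and 5.58 TPM in parental DMSO libraries, with a log2 difference of 1.27 (SE 0.10). In parental MAL3-101 against DMSO cells 1 was higher and 6 lower, or 3 lower without parental MAL3-101 library A or B, against 22.6% and 18.2% of all genes. BMP1 had -0.67 (SE 0.12, adjusted p = 0.005) there. The single rise, of the N-proteinase gene ADAMTS14 at 0.30 (SE 0.10, adjusted p = 0.047), was lost without any 1 library but DMSO library A. Resistant against DMSO cells gave 2 higher and 7 lower, against 20.9% and 29.7% of all genes.

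Among 9 tested genes of collagen breakdown and its inhibitors, resistant against parental MAL3-101 cells gave 3 higher and 1 lower, parental MAL3-101 against DMSO cells 1 higher and 4 lower, and resistant against DMSO cells 2 higher and 5 lower. The shares of all genes higher and lower were 21.3% and 34.8%, 22.6% and 18.2%, and 20.9% and 29.7% in the same order. MMP2, a gelatinase that degrades type IV collagen, stood at 168 and 164 TPM in resistant MAL3-101 libraries, 128 and 122 TPM in parental MAL3-101 libraries, and 250.2 and 232 TPM in parental DMSO libraries. The groups did not overlap, DMSO was highest, and the log2 fold changes were 0.41 (SE 0.05) between the MAL3-101 groups and -0.94 (SE 0.05) between parental MAL3-101 and DMSO cells. TIMP2, the inhibitor that also helps to activate MMP2, followed the same order, with 0.30 (SE 0.06) and -0.83 (SE 0.06); without parental MAL3-101 library B its first adjusted p was 0.051. TIMP3 ran the other way, at -0.56 (SE 0.06) and 0.90 (SE 0.06). MMP14, the membrane protease that activates MMP2, was not called at -0.02 (SE 0.10, adjusted p = 0.881) and -0.28 (SE 0.10, adjusted p = 0.057). Its second value passed without DMSO library A (0.045) or B (1.9e-04), and its first changed sign with the scaling.

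Of the listed collagen receptors, 5 passed the filter. In resistant against parental MAL3-101 cells 1 was higher and 4 lower, in parental MAL3-101 against DMSO cells 1 higher and 2 lower, and in resistant against DMSO cells 2 higher and 3 lower. All genes had 21.3% higher and 34.8% lower in the first of these comparisons, 22.6% and 18.2% in the second, and 20.9% and 29.7% in the third. ITGA1, the integrin chain that prefers type IV collagen, stood at 17.7 and 16.8 TPM in resistant MAL3-101 libraries, 8.92 and 8.62 TPM in parental MAL3-101 libraries, and 9.00 and 6.66 TPM in parental DMSO libraries, a log2 change of 0.90 (SE 0.14, adjusted p = 0.001) between the MAL3-101 groups. DDR2, a receptor kinase for fibrillar collagen, stood at 45.5 and 42.3 TPM in resistant MAL3-101 libraries, 69.8 and 67.3 TPM in parental MAL3-101 libraries, and 27.4 and 19.7 TPM in parental DMSO libraries. It was lower in resistant than in parental MAL3-101 cells, at -0.63 (SE 0.14, adjusted p = 0.006), and rose with MAL3-101 in parental cells, by 1.52 (SE 0.14, adjusted p = 3.2e-04). DDR1, its relative, was lower in both, at -0.43 (SE 0.05) and -0.33 (SE 0.05). CSPG4, a proteoglycan that binds type VI collagen, had -1.51 (SE 0.10) between the MAL3-101 groups. ITGB1, the common integrin partner chain, had -0.17 (SE 0.06, adjusted p = 0.042), a call lost under either rescaling (0.503 and 0.599) and without any 1 MAL3-101 library (0.085 to 0.220).

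Laminins form the other network of basement membranes. Of 13 tested basement membrane genes, 3 were higher and 7 lower in resistant against parental MAL3-101 cells (21.3% and 34.8% of all genes), with 1 higher without resistant library A, resistant library B or parental MAL3-101 library B. LAMC1, the laminin chain common to most trimers, stood at 34.5 and 33.2 TPM in resistant MAL3-101 libraries, 103 and 101 TPM in parental MAL3-101 libraries, and 95.3 and 103 TPM in parental DMSO libraries. Its log2 fold change between the MAL3-101 groups was -1.56 (SE 0.06, adjusted p = 3.6e-06). LAMB1 stood at 44.6 and 43.5 TPM in resistant MAL3-101 libraries, 80.9 and 82.9 TPM in parental MAL3-101 libraries, and 103 and 113 TPM in parental DMSO libraries, a log2 difference of -0.88 (SE 0.06, adjusted p = 3.4e-05). LAMA5 stood at 10.2 and 9.83 TPM in resistant MAL3-101 libraries, 32.5 and 33.2 TPM in parental MAL3-101 libraries, and 20.5 and 32.6 TPM in parental DMSO libraries, a log2 change of -1.62 (SE 0.18, adjusted p = 3.2e-04). Resistant cells were lowest for LAMC1, LAMB1 and LAMA5, where they were highest for COL4A1 and COL4A2. LAMA2, the laminin chain gene typical of muscle and named here after its values were seen, went the same way as COL4A1 and COL4A2, at 20.0 and 19.0 TPM in resistant MAL3-101 libraries, 13.0 and 12.7 TPM in parental MAL3-101 libraries, and 11.3 and 11.1 TPM in parental DMSO libraries. Its log2 fold change between the MAL3-101 groups was 0.56 (SE 0.08, adjusted p = 9.2e-04). In parental MAL3-101 against DMSO cells 1 gene was higher and 4 lower (22.6% and 18.2% of all genes); 3 and 2 were higher without DMSO library A and B, and 2 lower without parental MAL3-101 library A. The rise was that of HSPG2, which encodes perlecan, at 0.39 (SE 0.05). For resistant against DMSO cells, 2 were higher and 7 lower (20.9% and 29.7% of all genes).

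Among matrix proteins that associate with collagen fibrils, 4 were higher and 2 lower of 7 in resistant against parental MAL3-101 cells, beside 21.3% and 34.8% of all genes. FN1, whose fibronectin mesh serves as a template for collagen fibrils, stood at 276 and 259.6 TPM in resistant MAL3-101 libraries, 170.5 and 169 TPM in parental MAL3-101 libraries, and 195 and 169 TPM in parental DMSO libraries. Resistant cells were highest, with a log2 difference of 0.66 (SE 0.07, adjusted p = 2.9e-04), and the parental groups lay together. SPARC, a collagen-binding glycoprotein of basement membranes, stood at 1456 and 1464 TPM in resistant MAL3-101 libraries, 1209.5 and 1208 TPM in parental MAL3-101 libraries, and 1717 and 1743 TPM in parental DMSO libraries, and was lowest in parental MAL3-101 cells. FBN1, a microfibril gene, was higher between the MAL3-101 groups, at 0.78 (SE 0.06), while FBN2 (-1.20, SE 0.08) and THBS1 (-1.91, SE 0.29) were lower. Between parental MAL3-101 and DMSO cells 1 was higher and 1 lower, beside 22.6% and 18.2% of all genes. The rise, of FBN1, was lost without either library of each MAL3-101 group (0.107 to 0.227), and 3 and 2 were lower without DMSO library A and B. The fall was that of SPARC, by 0.52 (SE 0.04) on the log2 scale. Between resistant and DMSO cells 3 were higher and 3 lower, beside 20.9% and 29.7% of all genes.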

How the data were processed

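Whole-transcriptome RNA sequencing covered 6 libraries, grouped by the labels' titles and descriptions into 3 groups of 2. For the DMSO samples, whose titles name the drug too, the descriptions decided. The submitters' processing notes name RSEM, DESeq and hg19, while tool versions, the annotation and strand handling are not given in these sources. The values deposited by the authors are TPM for each gene name, rounded to 2 decimals, with library totals of 1000000 but for rounding. TPM keeps no depth, so no counting interval is given, and no count test was run.

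Values were taken as log2(TPM + 1). limma 3.58.1 in R 4.3.3 was run once on all 6 libraries, with a term per group, a trended prior variance and 3 residual degrees of freedom, on the 15148 genes that averaged 1 TPM or more in some group. P-values were adjusted by Benjamini-Hochberg within each of 3 comparisons, and calls rest on an adjusted p under 0.05. The code was tested on simulated libraries. Reads of overlapping genes on opposite strands may be mixed.

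The collagen genes, their classes and the gene lists were chosen with earlier results of these data known. Library values are given for collagens that averaged 5 TPM or more in some group, and for called ones with an absolute log2 fold change of 1 or more. From each pathway list, genes were named by the largest called changes above 5 TPM, plus 16 genes in every case, and the text takes a part of these. Alternatives were other pseudocounts, filters, libraries fitted, a replicate block, scalings, no trend, a fold threshold and each library left out. Scaling of the class sums and sums over tested genes alone were added after seeing the data. Python 3.11.15, pandas 2.3.3 and matplotlib 3.10.9 served for tables and figures. Promoter sequences and gene order are from RefSeq on GRCh38.p14, which is not the build of the files.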

Additional observations from a re-analysis of the deposited data

How the results depend on the processing

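Of 1314 alternative values of the collagen fold changes, over 16 alternatives, 1156 kept their side of the threshold with no called value reversed, 119 lost a call, 38 gained one and 1 reversed; of the 1156, 22 changed sign without being called in either fit. The reversal was COL2A1 in parental MAL3-101 against DMSO cells, at 0.23 without DMSO library A (-0.37 without DMSO library B). In that comparison 2 collagens were called higher and 4 lower of 43 with no filter, against 2736 and 2042 of all 30480 genes. A fold of 1.5 left 0 higher and 0 lower of 28, against 299 and 47 of all 15148 genes. The fold test had 1 collagen with an unadjusted p under 0.05. In resistant against DMSO cells, 2 collagens were higher and 6 lower of 28 at a fold of 1.5, against 492 and 752 of all 15148 genes. With a filter of 5 TPM, which tests fewer genes, 7 were lower of 18, against 3901 of all 11507 genes. In resistant against parental MAL3-101 cells a fold of 1.5 left 5 of 28 higher (COL3A1, COL5A2, COL4A1, COL5A1 and COL4A2) and 7 lower. Of all 15148 genes, 435 were higher and 1169 lower there. Calls of collagens changed in each of the 3 comparisons as single libraries were left out. Summed over tested collagens alone, type IV chains were 34.5% and the other families 11.6% of the resistant sum. Median-ratio and upper-quartile scaling moved the all-gene median of resistant against parental MAL3-101 cells by 0.09 and 0.11, each with 10 collagens higher and 9 lower; of all calls there, 38.0% were higher as deposited and 49.2% and 50.6% after these scalings. Libraries of the same letter showed no shared deviation across groups, with correlations of -0.021, -0.020 and 0.026 over all tested genes. The labels do not say whether letters were paired, and these values cannot settle it. With the replicate block, resistant against parental MAL3-101 cells gave 7 higher and 10 lower (COL9A1 lost, COL2A1 gained), parental MAL3-101 against DMSO cells 6 and 8, and resistant against DMSO cells 9 and 12. The number of libraries limits the precision, and levels near 1 TPM have an unknown counting error.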
